A study of Mus musculus with 24 samples.

Results

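The genes described here are 10 transcripts that are commonly used as markers of reactive astrocytes: Gfap, Vim, Serpina3n, Lcn2, Cd44, Osmr, Stat3, Steap4, Cd109 and Tnc. They were taken by symbol from the gene table of the deposited counts, where each of them had 1 row among 32288 genes. Single nuclei had been sequenced from 2 brain regions of 12 mice, so that 24 libraries were available, with 1 library for each region of a mouse. The 6 mutant mice were Pdgfb ret/ret and the 6 control mice were Pdgfb ret/wt, so every animal of the strain B6.Pdgfbtm3Cbet carried at least 1 ret allele and no wild-type animal was included. All mutants and 5 controls were female, and control 6 was male. By the labels the animals were between 4 months 7 days and 5 months 18 days old. The deep brain, a pool of regions that become calcified in these mutants, and the cortex with the hippocampus, which does not, were dissected from every mouse. The ret allele removes the retention motif at the end of the Pdgfb protein, and counts made from 5′ ends do not read that part, so Pdgfb itself gives no check of the labels.

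Astrocytes react to injury and inflammation with a programme of gene expression that differs with the stimulus. It includes the intermediate filament proteins Gfap and Vim, secreted acute-phase proteins such as Serpina3n and Lcn2, and surface and matrix molecules such as Cd44 and Tnc. Much of it is driven by cytokines of the interleukin-6 family, which bind receptors that share the subunit gp130, Osmr being the partner subunit for oncostatin M, and which activate the transcription factor Stat3. Pdgfb, secreted by endothelial cells, recruits pericytes, and its ret allele, which lacks the motif that retains the protein near the vessel, leaves the brain vasculature with few pericytes and with vessel-associated calcification.

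After limits on genes and mitochondrial share, 124958 nuclei of the deep brain and 79967 of the cortex were kept, from libraries of 23625232 to 96459036 UMIs (unique molecular identifiers, counted molecules). Kept nuclei of a library had a median of 3547 to 7314.5 UMIs in the deep brain and of 804 to 8054 UMIs in the cortex, where 7 of 12 libraries lay under 1500 (4 mutant and 3 control libraries). Clusters that met a list of 9 astrocyte markers, none of them a reactive astrocyte gene, and were not left out for the reasons below gave 12065 astrocyte nuclei, 10476 in the deep brain (591 to 1193 per library) and 1589 in the cortex (26 to 454 per library). Another 1937 deep brain nuclei (13.4% to 20.3% of the nuclei in such clusters per mutant library and 10.6% to 18.4% per control library) and 58 cortical nuclei lay in clusters that met the list and were left out. The 58 do not include the largest cortical cluster, described below, which was left out as well. These clusters had a median depth over 2 times that of their libraries, met the oligodendrocyte list too, or had under 2 astrocyte markers among their 10 leading genes. All 9 markers were found in both regions, and Aqp4, the water channel of astrocyte endfeet, lay between 461 and 763 CPM (UMIs of a gene scaled to a common total of the class) in deep brain and between 370 and 854 CPM in cortical astrocytes. In the cortex no cluster could be named as neurons, and the largest cluster, of 38893 nuclei, was led by mitochondrial genes (5 of the 9 astrocyte markers were found enriched in it) and was left without a name. Any 2 libraries shared between 8 and 220 nucleus barcodes, at most 1.99% of the barcodes of the smaller one. Astrocytes were 9.02% ± 1.72 (SD, n = 6) of deep brain nuclei in mutants and 7.69% ± 0.882 (SD, n = 6) in controls. In the cortex they were 1.70% ± 1.76 and 2.09% ± 1.33 of nuclei, and neither difference passed an exact permutation test (two-sided p = 0.128 and 0.686). The cortical shares count the largest cluster among the nuclei but not among the astrocytes.

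The members differed widely in how well they were counted. Over all kept nuclei Stat3 had 46465 UMIs, Gfap 10615, Tnc 7551, Vim 7389, Cd44 6861, Serpina3n 4858, Osmr 1522 and Cd109 1510, whereas Lcn2 had 156 and Steap4 had 145. Few molecules of Lcn2 and Steap4 were thus available in any class. Serpina3n is 1 of 11 Serpina3 paralogues on chromosome 12 (10 of them in the count table), so its reads can be shared with near copies. Stat3 overlaps Stat5a, Cd109 overlaps 4921509A06Rik and Tnc overlaps 8030451A03Rik on the opposite strand, and whether counting used the strand is not given in the sources used here.

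Positions are given in GRCm38, the assembly that mm10 names. Gfap lies on chromosome 11 from 102887336 to 102900912 and Stat3 on the same chromosome from 100885098 to 100939540, both on the minus strand. Cd109 lies on chromosome 9 from 78615546 to 78716253 on the plus strand. Osmr lies on chromosome 15 from 6813577 to 6874969 and Tnc on chromosome 4 from 63959785 to 64047015, both on the minus strand. Since Stat3 is itself a member, the 250 bases before the start site of the members were searched for the Stat-type motif TTCNNNGAA, which reads the same on both strands, in RefSeq promoters of GRCm38.p6. Promoters were listed for 9 of the 10 members, and 1 of these 9 held the motif, against 7.02% of all 32851 promoters. It was that of Steap4, a plasma membrane metalloreductase, whose motif begins 116 bases before the start. The stretch is shown with the motif in capitals, at chr5:7960346-7960374 on the plus strand.
Steap4: ggttgaactcTTCCCGGAAactttgcttc

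Only Gfap and Tnc had their highest mean level in astrocytes among the 11 classes of control deep brain. Gfap, the filament protein of mature astrocytes, lay at 88.3 ± 25.0 CPM (SD, n = 6) in astrocytes, 34.9 ± 31.2 in ependymal cells and 5.34 ± 1.16 in oligodendrocytes. Tnc, a glycoprotein of the extracellular matrix, lay at 35.6 ± 12.3 CPM in astrocytes and 20.5 ± 8.11 CPM in oligodendrocyte precursor cells (OPCs). For both genes the ranges of astrocytes and of the next class overlapped over the 6 controls. Serpina3n, a secreted inhibitor of serine proteases, was highest in OPCs at 8.85 ± 3.50 CPM and next in astrocytes at 5.72 ± 1.31 CPM, and these ranges overlapped as well.

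The other members were led by vascular, immune or ependymal cells. Vim, the filament protein of mesenchymal cells, lay at 401 ± 154 CPM in endothelial cells, 147 ± 62.2 in fibroblasts, 109 ± 18.1 in ependymal cells and 13.0 ± 5.49 in astrocytes. Osmr lay at 142 ± 32.9 CPM in endothelial cells, 84.6 ± 38.1 in mural cells and 75.3 ± 35.1 in fibroblasts. Its level in astrocytes, the fourth in order, was 4.81 ± 2.57 CPM, and no control library reached the fibroblast range. Cd109, a membrane-anchored protein that binds transforming growth factor beta, was at 43.5 ± 10.2 CPM in ependymal cells and at 3.75 ± 0.978 CPM in astrocytes, without overlap. Cd44, the hyaluronan receptor, was highest in macrophages at 127 ± 91.3 CPM, against 8.00 ± 2.47 CPM in astrocytes. Stat3 was spread over the classes, from 132 ± 11.6 CPM in fibroblasts, 119 ± 9.49 in endothelial cells and 113 ± 17.1 in microglia to 62.0 ± 8.03 in astrocytes, the eighth in order. Steap4 was highest in mural cells at 16.0 ± 17.5 CPM from 8 UMIs, whereas neurons held 43 UMIs at 0.117 CPM. Lcn2, a siderophore-binding acute-phase protein, was at 5.85 ± 7.23 CPM in endothelial cells from 8 UMIs. In macrophages it was at 7.65 ± 18.7 CPM from 4 UMIs, all of them in 2 nuclei of control 5, and neurons held 6 UMIs at 0.0179 CPM.

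**Figure D1:**
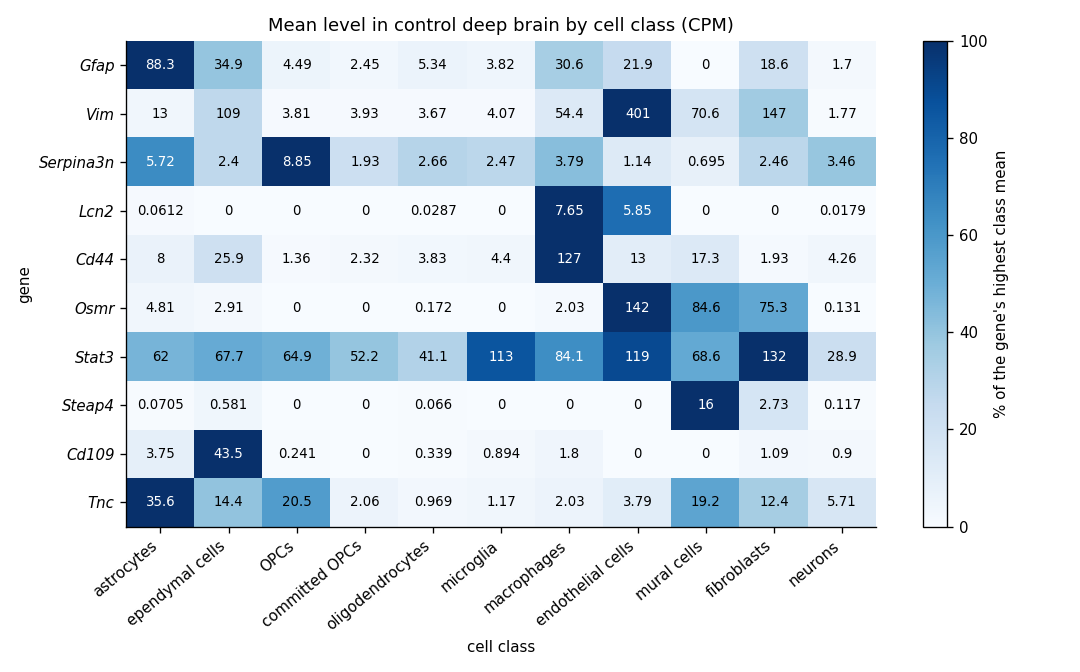
Mean level of each gene (rows) in each cell class (columns) of the 6 control deep brain libraries; the printed values are CPM and the shade gives each value as a percentage of the gene's highest class. Gfap and Tnc have their darkest cell in astrocytes, Vim and Osmr in endothelial cells and Cd109 in ependymal cells.

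In the cortex only astrocytes, oligodendrocytes, OPCs and microglia were compared, and among these 4 classes 6 members were highest in control astrocytes. Vascular cells were not among the 4. In 53 cortical endothelial nuclei of 2 control libraries, Vim had a mean of 426 CPM and Osmr of 92.6 CPM, above the astrocyte levels that follow. The 6 members were Gfap at 123 ± 30.6 CPM, Tnc at 78.6 ± 23.6, Vim at 23.7 ± 13.5, Osmr at 16.5 ± 12.1, Cd44 at 11.4 ± 5.43 and Cd109 at 1.14 ± 1.38 CPM (SD, n = 6). The astrocyte ranges of Gfap, Cd44 and Osmr did not overlap those of the next of the 4 classes, and those of the other 3 did. Serpina3n was again highest in OPCs, at 18.1 ± 12.3 CPM, and Stat3 in microglia, at 118 ± 37.0 CPM.

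Mutant and control astrocytes of the deep brain were compared to see whether reactive genes rise where vessels calcify. Of the 10 members 8 passed the filter on low counts, and 1 of the 8, Cd109, was called (edgeR's quasi-likelihood test, adjusted p under 0.05), against 5.03% of all 12832 genes tested (3.12% higher in mutants). The median log2 fold change of all genes tested was -0.005. The level of Cd109 had a lowest, median and highest value of 3.03, 7.13 and 9.95 CPM in mutants and 1.89, 3.89 and 4.77 CPM in controls. In 5 of 6 mutants it lay above every control, and mutant 6 lay within the control range. Its log2 fold change was 0.97 ± 0.26 (SE, adjusted p = 0.0416, rank 555 by p), from 146 UMIs in mutants and 62 in controls. This call is weak: when 1 library at a time was left out it remained in 2 of 12 fits, those without mutant 6 and without control 4, with log2 fold changes from 0.80 to 1.08 and adjusted p from 0.00801 to 0.1. It was also lost in the fit of all clusters that met the astrocyte list (adjusted p = 0.0674) and in the fit of non-telencephalic-like astrocytes alone (adjusted p = 0.0579).

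The share of nuclei with a Cd109 UMI, after thinning each nucleus to 1000 UMIs, was 0.730% ± 0.224 in mutants and 0.425% ± 0.113 in controls (SD, n = 6). The exact permutation test gave a two-sided p of 0.013, not adjusted for the 11 member and region pairs tested in this way. In oligodendrocytes the thinned share was 0.0599% ± 0.0438 and 0.0394% ± 0.0255, so the share in astrocytes lay above that of a class at similar depth (medians of 2315 to 3312 UMIs per nucleus, against 2779 to 4369 in astrocytes). Without thinning the astrocyte shares were 2.26% ± 0.841 and 1.29% ± 0.428 (exact permutation p = 0.0346).

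The filament genes of deep brain astrocytes were not separated by genotype. Gfap had a lowest, median and highest level of 59.0, 77.7 and 104 CPM in mutants and 55.0, 91.3 and 119 CPM in controls, and its log2 fold change was -0.14 ± 0.17 (adjusted p = 0.733). Vim had 6.39, 12.6 and 13.6 CPM in mutants and 4.65, 13.9 and 20.2 CPM in controls, with a log2 fold change of -0.20 ± 0.26 (adjusted p = 0.764). In both cases the mutant range lay inside that of the controls. Their shares of thinned nuclei with a UMI were 5.02% ± 0.656 against 5.99% ± 1.20 for Gfap (exact permutation test, p = 0.0909) and 0.977% ± 0.263 against 1.18% ± 0.534 for Vim (p = 0.459).

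The receptor Osmr had a lowest, median and highest level of 5.78, 7.92 and 12.5 CPM in mutants and 0.846, 4.57 and 8.81 CPM in controls. Every mutant exceeded 5 of the 6 controls, yet its log2 fold change of 0.73 ± 0.32 missed the threshold (unadjusted p = 0.0337, adjusted p = 0.213). Stat3, downstream of the receptor, had a log2 fold change of -0.08 ± 0.09 (adjusted p = 0.726), with 57.0 CPM as the mutant and 63.5 CPM as the control median. Tnc was lowest in mutants 1 to 4, at 12.8 to 20.2 CPM, while mutants 5 and 6 reached 47.9 and 40.9 CPM and the controls spanned 20.3 to 55.5 CPM. Its log2 fold change was -0.54 ± 0.32 (adjusted p = 0.401). Serpina3n and Cd44 had log2 fold changes of 0.36 ± 0.29 and 0.23 ± 0.22 (adjusted p = 0.576 and 0.658), and both had overlapping ranges. Lcn2 and Steap4 had no UMI in 5827 mutant astrocytes, where 3 counts would be a level of 0.152 CPM, and 1 UMI each in 4649 control astrocytes.

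**Figure D2:**
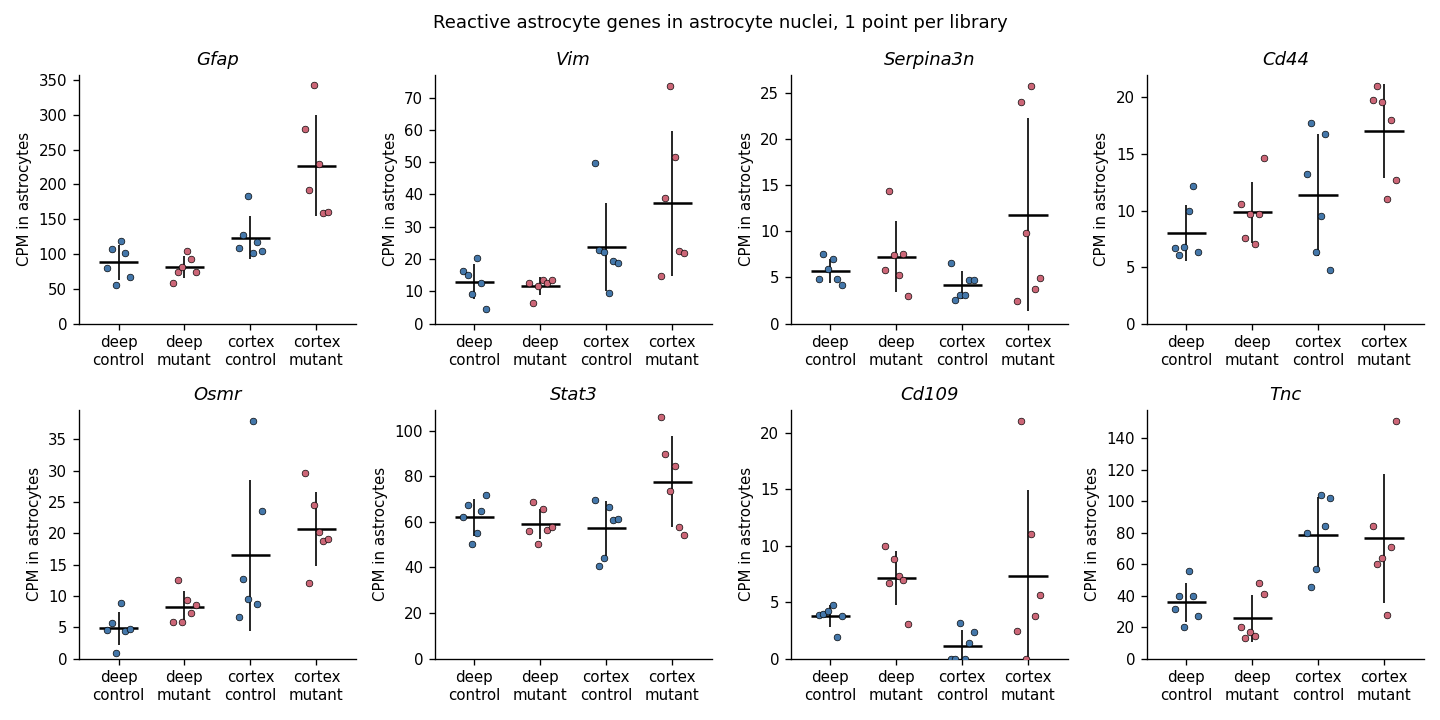
Level of 8 reactive astrocyte genes in astrocyte nuclei (vertical axes, CPM), with 1 point per library, blue for controls and red for mutants; horizontal bars are means and vertical bars 1 SD (n = 6). Cd109 in the deep brain and Gfap in the cortex are the genes called between genotypes, and cortical Gfap spans 101 to 183 CPM in controls and 159 to 343 CPM in mutants.

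Markers of other cell types moved with genotype in the deep brain astrocyte class, and their part in these results was not tested. The summed OPC list (6 markers, all found) had medians of 436 CPM in mutants (380 to 601) and 258 CPM in controls (212 to 336), without overlap (exact permutation test, p = 0.00216, the smallest that 6 against 6 can give). The fibroblast list (6 markers, all found) went the other way, with 57.0 CPM (47.1 to 69.1) and 99.5 CPM (76.1 to 109), with the same exact p of 0.00216. For the neuron and oligodendrocyte lists p was 0.84 and 0.994. The ependymal list, markers of the class with the most Cd109, lay at 22.3 and 22.5 CPM (exact permutation p = 0.468). Among the 10 genes with the smallest p in this comparison, Cacna1a, Rimbp2, Rbfox1, Mamdc2, Fam155a, 3222401L13Rik, A2m and Tshz2 rose and Fzd2 fell.

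Deep brain astrocytes fell into 2457 telencephalic-like nuclei (Lhx2, a forebrain transcription factor gene on the marker list, at 30.2 to 87.2 CPM) and 8019 non-telencephalic-like nuclei (Lhx2 at 0 to 2.97 CPM). The types were clustered on these nuclei, so their levels are given as a description. Over 12 libraries Gfap lay at 158 ± 38.4 CPM in the telencephalic-like type and at 61.4 ± 14.4 CPM in the other, 2.57 times as high and higher in 12 of 12 libraries. Tnc lay at 73.7 ± 37.6 and 15.9 ± 5.99 CPM, 4.62 times as high, again in 12 of 12. Osmr showed the widest gap, 20.2 ± 12.7 against 2.05 ± 0.892 CPM, 9.83 times as high and higher in 11 of 12 libraries. Vim followed the same order in 10 of 12 libraries (2.52 times). Cd109 and Serpina3n were lower in the telencephalic-like type in 9 and 8 of 12 libraries, with ratios of 0.749 and 0.758. The telencephalic-like share of astrocytes was 17.7% ± 6.2 among mutants and 29.7% ± 14.0 among controls (p = 0.0887 by exact permutation), and the telencephalic list in the whole class was lower in mutants, with medians of 207 and 368 CPM (p = 0.0108).

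**Figure D3:**
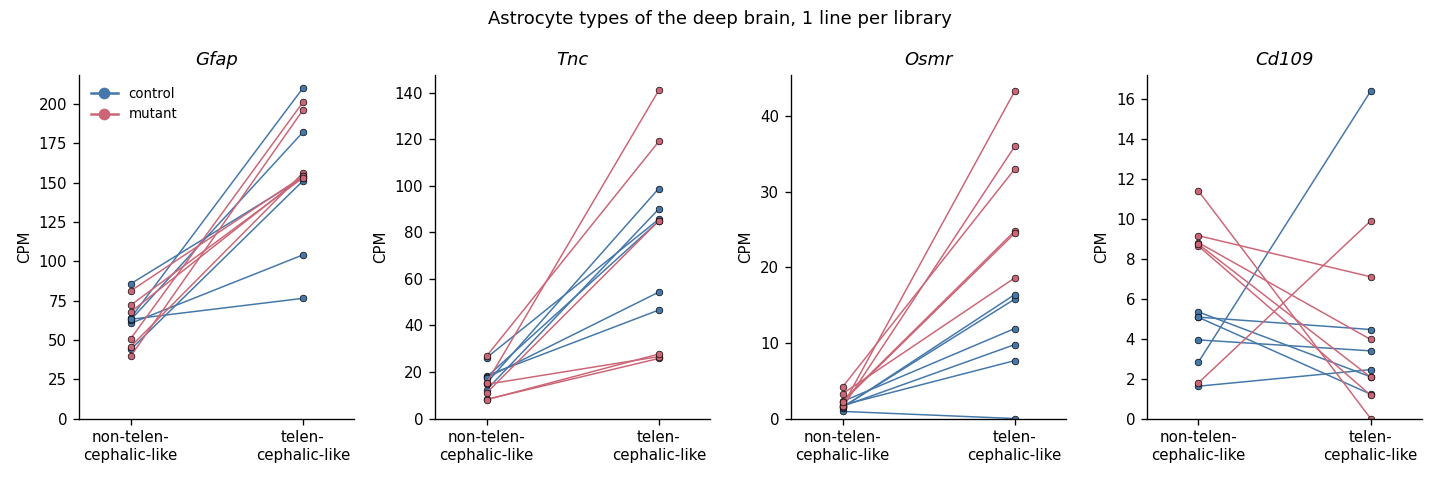
Level of Gfap, Tnc, Osmr and Cd109 (vertical axes, CPM) in the non-telencephalic-like and telencephalic-like astrocytes of the deep brain, with 1 line per library, blue for controls and red for mutants. Gfap and Tnc rise from left to right in all 12 libraries, and among telencephalic-like nuclei Osmr lies between 18.6 and 43.3 CPM in mutants and between 0 and 16.4 CPM in controls.

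Within the telencephalic-like type alone, a fit added after the data had been seen, Osmr was higher in mutants. Its lowest, median and highest levels were 18.6, 28.9 and 43.3 CPM in mutants, and 0, 10.8 and 16.4 CPM in controls, without overlap, as held for 2.1% of the 9665 genes tested there. The log2 fold change was 1.31 ± 0.29 (edgeR, adjusted p = 0.0109), from 124 UMIs in mutants and 65 in controls. This was 1 of 5 members tested there, against 3.9% of 9665 genes. Counts of Osmr were low, at 10 to 37 UMIs per mutant and 0 to 22 per control library. Osmr passed the low-count filter through the mutants. All of them reached the level that the filter asks for at this depth, and most controls did not. Its call and its lack of overlap in this type are therefore a description and give no support for a difference. Control 3, at 0, had 60 nuclei, mutants 1 and 6 had 93 and 82, and 9 of the 37 UMIs of mutant 2 lay in 1 nucleus. No fit that left out 1 library is given for this type. In the telencephalic-like nuclei Gfap had a log2 fold change of 0.15 (adjusted p = 0.785) and Stat3 of 0.21 (adjusted p = 0.533). In the non-telencephalic-like type, where 0 of 7 members and 4.94% of 12195 genes were called, Cd109 had a log2 fold change of 1.11 ± 0.33 (adjusted p = 0.0579) and Vim of 0.10 (adjusted p = 0.91).

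In cortical astrocytes Gfap was higher in mutants. It was 1 of the 3 members that passed the filter on low counts, and 2.24% of 6840 genes were called (1.27% higher). Its lowest, median and highest levels were 159, 211 and 343 CPM in mutants and 101, 113 and 183 CPM in controls. Control 3, at 183 CPM, exceeded mutants 5 and 6, at 159 and 160 CPM, and the other 5 controls lay below all mutants. The log2 fold change was 0.83 ± 0.19 (edgeR, adjusted p = 0.0192, rank 80 by p), and the call remained in 12 of 12 fits that left out 1 library each (log2 fold change 0.71 to 0.96). The share of nuclei with a Gfap UMI after thinning to 500 UMIs was 8.67% ± 2.47 among mutants and 4.89% ± 1.52 among controls (p = 0.00866 by two-sided exact permutation, not adjusted for the 11 pairs), and 42.6% ± 14.2 and 24.7% ± 6.84 without thinning (p = 0.0195). In cortical oligodendrocytes the thinned share was 0.476% ± 0.130 and 0.328% ± 0.304, at medians of 2016.5 to 5919 UMIs per nucleus, against 3043.5 to 8717 in astrocytes. When astrocyte nuclei that held a UMI of selected neuronal, oligodendrocyte or microglial markers were removed, 1 control and 2 mutant libraries had enough nuclei left, so the lone control was assumed to vary like the mutants and the fit says little about the call (log2 fold change 1.40 ± 0.44, adjusted p = 0.2).

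Cortical libraries differed in the median UMIs of all their kept nuclei, and Gfap is given on each side of 1500. This split does not sort the astrocytes by depth. Their medians lay between 3043.5 and 8717 UMIs per library, and mutant 2, at 934 over all kept nuclei, had the highest. Among libraries with a median over 1500 UMIs per nucleus, the 2 mutants lay at 159 and 160 CPM and the 3 controls between 104 and 127 CPM. Among the shallower libraries the 4 mutants lay between 192 and 343 CPM and the 3 controls between 101 and 183 CPM. The mutants lay above the controls in both sets of libraries, but among the shallower libraries this rested on 1 nucleus. Without the nucleus that held 32 Lcn2 UMIs, mutant 2 fell from 192 to 155 CPM, below control 3 at 183 CPM. Without the deeper libraries the log2 fold change was 0.94 ± 0.23 (adjusted p = 0.0442).

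The other members of cortical astrocytes were counted in few molecules. Stat3 had a lowest, median and highest level of 54.4, 79.1 and 106 CPM in mutants and 40.5, 61.0 and 69.5 CPM in controls, with a log2 fold change of 0.37 ± 0.20 (adjusted p = 0.466). Tnc had a log2 fold change of 0.05 ± 0.28 (adjusted p = 0.989), and mutant 6 at 151 CPM stood above all others. Vim lay at 37.2 ± 22.3 CPM in mutants and 23.7 ± 13.5 CPM in controls (123 and 71 UMIs), Cd44 at 17.0 ± 4.13 and 11.4 ± 5.43 (67 and 43 UMIs), and Osmr at 20.7 ± 5.95 and 16.5 ± 12.1 (84 and 45 UMIs). Serpina3n had 37 UMIs in mutants and 14 in controls, and Cd109 had 27 and 4. The ranges of all 5 overlapped, and none of them passed the filter on low counts. In the cortical astrocyte class the OPC list was again higher in mutants (267 and 163 CPM, exact permutation test, p = 0.00649), and the telencephalic list was lower (473 and 1010 CPM, p = 0.00216). Its marker Mfge8 fell by 1.36 on the log2 scale (edgeR, adjusted p = 3.22e-05) and was among the 10 genes with the smallest p, with Agbl4, Pdzrn3, Kcnq1ot1, C030018K13Rik, A2m, Mgat5, Dnah7b, Grik4 and Entpd2.

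Most cortical Gfap molecules lay outside the nuclei named as astrocytes. Of 3381 Gfap UMIs in mutant cortex 24.0% were in astrocytes and 51.8% in the large cluster led by mitochondrial genes, and of 1154 in control cortex 33.8% and 37.1%. In the deep brain, astrocytes held 52.3% and 51.9%. The large cortical cluster held 25043 of the 47714 kept nuclei of mutants and 13850 of the 32253 of controls. Gfap in it lay between 58.2 and 278 CPM in mutants and between 9.01 and 102 CPM in controls, with overlap. Over all kept cortical nuclei, where more nuclei of a type and more RNA per nucleus cannot be told apart, Gfap had lowest, median and highest levels of 4.69, 18.9 and 25.4 CPM in mutants and 3.46, 6.55 and 10.1 CPM in controls. Mutants 1 to 4 and 6 lay above every control, and mutant 5 lay within the control range. The log2 fold change of 1.41 ± 0.36 was not called (edgeR, adjusted p = 0.158), where 0 of 8 members and 0.275% of 18171 genes were called, and it was called by DESeq2 (adjusted p = 0.00674) and without mutant 5 (adjusted p = 0.0204). Samples with the same number deviated together in this comparison, and with the replicate number as a block 418 in place of 50 genes were called, while Gfap had a log2 fold change of 1.26 ± 0.28 (adjusted p = 0.0502). Of the deeper libraries, the 2 mutants (4.69 and 10.7 CPM) did not separate from the 3 controls (4.02 to 7.37 CPM), and among the shallower the 4 mutants (17.0 to 25.4 CPM) lay above the 3 controls (3.46 to 10.1 CPM). The summed astrocyte marker list over the same nuclei lay between 1130 and 1510 CPM in mutants and between 1240 and 1520 CPM in controls (p = 0.848 by exact permutation). Over all deep brain nuclei Gfap had medians of 6.42 and 6.17 CPM, and 0 of 8 members were called (1.54% of 21040 genes; 0 of the 8 at an unadjusted p under 0.05, and 0 by DESeq2).

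**Figure D4:**
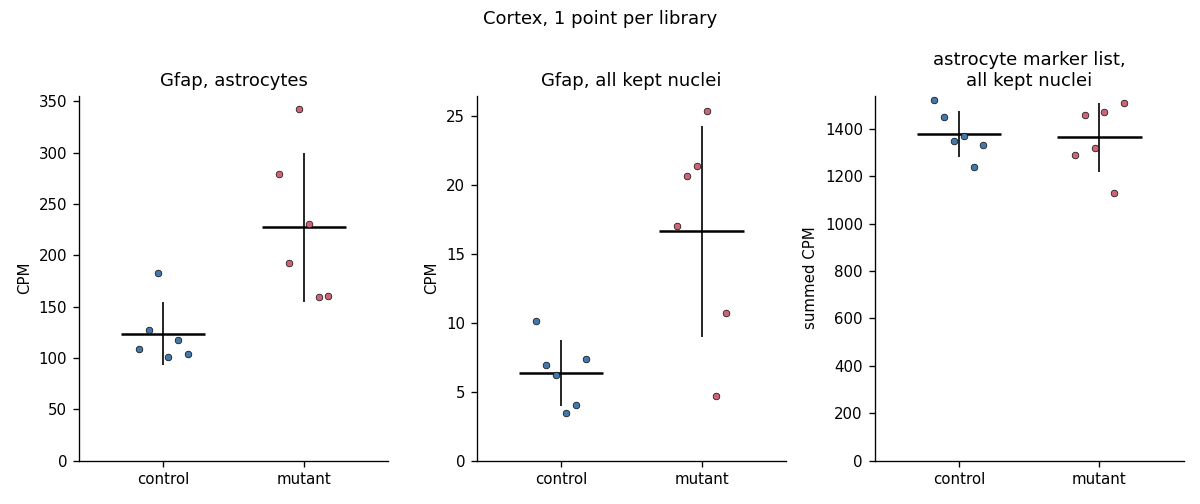
Cortical Gfap (CPM) in astrocytes and over all kept nuclei, and the summed level of 9 astrocyte markers over all kept nuclei (CPM), with 1 point per library, the mean as a horizontal and 1 SD as a vertical bar (n = 6). In astrocytes the mutants span 159 to 343 CPM and the controls 101 to 183 CPM, while the marker lists of both genotypes lie between 1130 and 1520 CPM.

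All cortical astrocyte UMIs of Lcn2 came from a single nucleus. The 32 UMIs lay in mutant 2, in a nucleus of 10344 UMIs (median of the astrocyte nuclei of its library 8717). All 10 members were found in this nucleus, with 14 UMIs of Gfap, 10 of Vim, 8 of Serpina3n, 4 of Cd44, 3 of Steap4 and 3 of Cd109. It had 6 of the 9 astrocyte markers with 179 UMIs in all, and 2 UMIs of the neuron, 6 of the oligodendrocyte and 0 of the microglial list. No other cortical astrocyte nucleus held more than 6 members, and 2 of the 12065 astrocyte nuclei had a Lcn2 UMI. Without this nucleus the level of mutant 2 changed from 192 to 155 CPM for Gfap, from 39.0 to 9.28 CPM for Vim and from 24.0 to 0 CPM for Serpina3n.

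Control mice served to compare the regions in the absence of the ret/ret genotype. Of 6 members tested, 2 were lower in deep brain than in cortical astrocytes, against 5.64% of 11828 genes that were lower (10.2% called in either direction). Tnc, at 20.3, 35.6 and 55.5 CPM (lowest, median and highest) in the deep brain and 45.6, 81.8 and 104 CPM in the cortex, fell by 1.17 ± 0.22 on the log2 scale (edgeR, adjusted p = 0.00119). Osmr, at 0.846, 4.57 and 8.81 CPM against 6.62, 11.1 and 37.9 CPM, fell by 1.61 ± 0.44 (adjusted p = 0.0206). With the mouse as a block, since both regions came from the same animals, 4 members were lower, against 6.97% of all genes in that fit. Beside Tnc and Osmr these were Vim, which fell by 0.87 (adjusted p = 0.0378), and Gfap, which fell by 0.51 (adjusted p = 0.031). Without the block they had log2 fold changes of -0.78 ± 0.34 (adjusted p = 0.175) and -0.49 ± 0.19 (adjusted p = 0.107). Stat3 and Cd44 had log2 fold changes of 0.08 ± 0.14 and -0.67 ± 0.32 (adjusted p = 0.814 and 0.215). Cortical astrocytes were not split into types. Over the 12 libraries of each region, both genotypes included, Lhx2 lay between 27.2 and 80.3 CPM in cortical astrocytes and between 5.5 and 33.1 CPM in the whole deep brain class, with overlap, and its part in the regional differences was not tested. In telencephalic-like nuclei of control deep brain, Tnc lay between 46.6 and 98.8 CPM and Gfap between 76.4 and 210 CPM, beside 45.6 to 104 and 101 to 183 CPM in control cortex.

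**Figure D5:**
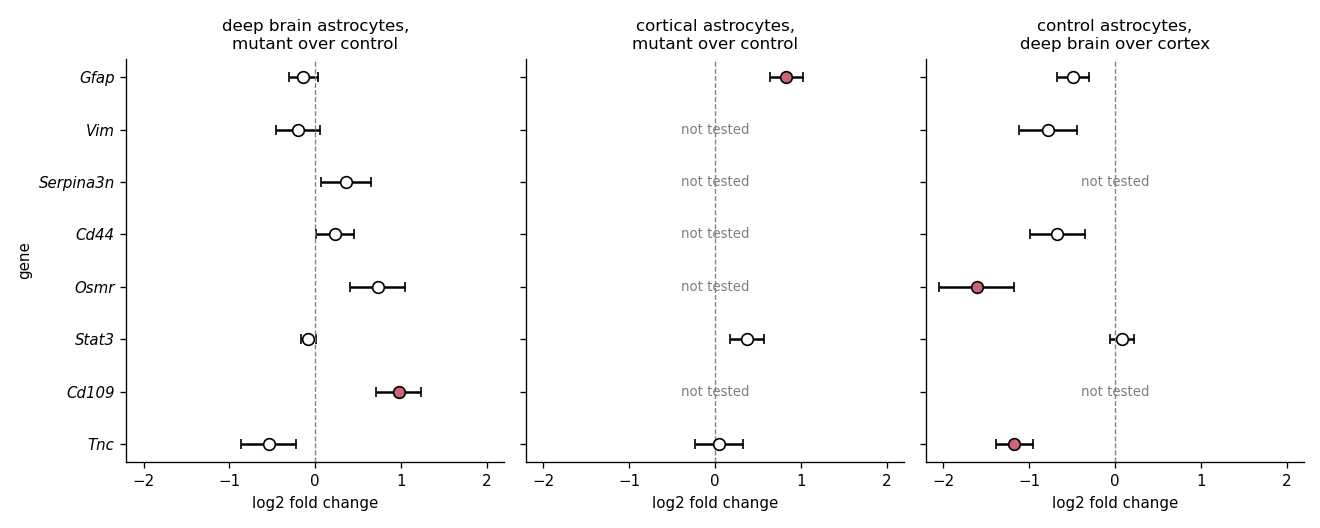
Log2 fold change with its standard error (horizontal axes) for 8 genes in 3 comparisons of astrocytes, red where the adjusted p was under 0.05 and white where it was not; genes that did not pass the filter on low counts are marked as not tested. Cd109 is red in the deep brain, Gfap in the cortex, and Osmr and Tnc between the regions of control mice.

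Whether the effect of genotype differed between regions was tested as an interaction over all 24 libraries, without the mouse as a block. It called 0 of 12341 genes (582 at an unadjusted p under 0.05, 1 gene by DESeq2). Gfap had the smallest p of the members, with an interaction of -0.95 ± 0.27 on the log2 scale (deep brain effect minus cortical effect, unadjusted p = 0.00118, adjusted p = 0.691, rank 20 of all genes). Over 5 settings of the interaction test its adjusted p lay between 0.257 and 0.691. The rise of Gfap in the cortex is thus not shown to differ from the deep brain after adjustment. Cd109 had an interaction of -1.40 ± 0.84 (adjusted p = 1.0).

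Among the other glia, Stat3 in cortical oligodendrocytes was the member that was called. Its lowest, median and highest levels were 52.6, 56.9 and 64.3 CPM in mutants and 33.4, 41.8 and 49.0 CPM in controls. The groups did not overlap, as was the case for 1.38% of the genes tested. The log2 fold change was 0.49 ± 0.12 (edgeR, adjusted p = 0.0494), 1 of 2 members tested against 0.980% of 10098 genes (0.713% higher). The adjusted p lay close to the threshold, and the call remained in 2 of 12 fits that left out 1 library, those without mutant 4 and without mutant 6 (adjusted p 0.0421 to 0.125, log2 fold change 0.44 to 0.53). Gfap in these nuclei had a log2 fold change of 0.67 ± 0.39 (adjusted p = 0.498). In deep brain oligodendrocytes Stat3 lay at 40.1 ± 4.14 and 41.1 ± 3.92 CPM, and 0 of 5 members were called (1.68% of 13523 genes; none of the 5 at an unadjusted p under 0.05, and 0 by DESeq2).

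In OPCs and microglia no member was called. In deep brain OPCs 0 of 3 members were called (0.0833% of 10807 genes), Serpina3n having a log2 fold change of -0.10 ± 0.26 and Tnc of 0.04 ± 0.32. In cortical OPCs only Stat3 was tested, with -0.08 ± 0.20, and edgeR called 0 of 6110 genes (366 at an unadjusted p under 0.05, 2 by DESeq2). Stat3 was also the only member tested in microglia, at 122 ± 10.7 CPM in mutants and 113 ± 17.1 CPM in controls of the deep brain (adjusted p = 0.962, 0.137% of 7324 genes called) and at 141 ± 21.4 and 118 ± 37.0 CPM in the cortex (adjusted p = 0.868, 0.144% of 2769 genes called). None of these members had an unadjusted p under 0.05 or was called by DESeq2.

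In deep brain endothelial cells, the class with the highest control means of Vim and Osmr, 0 of 3 members tested were called (0.397% of 4784 genes). Of the 3, 2 had an unadjusted p under 0.05 in edgeR, as had 8.42% of all genes, and 0 were called by DESeq2. Vim had a lowest, median and highest level of 447, 491 and 895 CPM in mutants and 227, 348 and 603 CPM in controls, with a log2 fold change of 0.57 ± 0.25 (adjusted p = 0.52). Osmr went the other way, with 37.3, 89.7 and 116 CPM in mutants and 96.2, 139 and 199 CPM in controls and a log2 fold change of -0.58 ± 0.21 (adjusted p = 0.328). The mural marker list, of a class that also expresses Osmr, was lower in the mutant endothelial class, with medians of 487 and 2210 CPM (exact permutation test, p = 0.00649), and its part in the Osmr values was not tested. Lcn2 did not pass the filter. It had 37 UMIs in mutant and 8 in control endothelial cells, from 53 and 24 over all deep brain nuclei, and 21 of the 37 were in mutant 3.

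The members belong to wider gene lists, given here for deep brain astrocytes, where 5.03% of all genes were called. Of 13 pan-reactive genes 7 were tested and 0 called, with a median log2 fold change of 0.23 beside -0.005 over all genes tested. Of 12 genes of the type induced by lipopolysaccharide (A1) 6 were tested, with a median of 0.38, and H2-D1, a class I histocompatibility gene whose reads can be shared with close paralogues, rose by 0.77 ± 0.14 (edgeR, adjusted p = 0.00399). The rise of H2-D1 was not particular to astrocytes. It was also called higher in mutant microglia of both regions, deep brain endothelial cells and cortical oligodendrocytes, but not in deep brain oligodendrocytes or in OPCs. Of 13 genes of the type induced by ischaemia (A2) 3 were tested, with a median of -0.02 and 1 of 3 positive, and the called one was Cd109. Of 20 genes of the gp130-STAT3 pathway, ligands, receptors and kinases, 10 were tested and 0 called, with a median of 0.06. Among 19 matrix and adhesion partners of Tnc and Cd44, 11 were tested, with a median of -0.01 and 5 of 11 positive, and Tnr, the matrix protein tenascin-R, rose by 1.22 ± 0.14 (adjusted p = 0.000159). Tnr is also a marker on the OPC list given above. None of 5 tested genes for filaments and their linkers and none of 13 homeostatic astrocyte genes were called, with medians of 0.10 and -0.14.

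In cortical astrocytes, where 2.24% of 6840 genes were called, Gfap was the single pan-reactive gene that passed the filter, and no gene of the other lists was called. The gp130-STAT3 pathway had a median of 0.25 over 8 genes, and the homeostatic genes had a median of -0.11 over 13 genes. H2-D1 and Tnr had log2 fold changes of 0.56 ± 0.31 and 0.48 ± 0.24 (adjusted p = 0.494 and 0.411). Between the regions of control mice, Ggta1 was lower in the deep brain by 1.21 on the log2 scale (adjusted p = 0.00152), as were the matrix proteoglycan genes Ncan by 0.96 (adjusted p = 0.00104) and Bcan by 0.44 (adjusted p = 0.0129), while the receptor gene Lifr was higher by 0.54 (adjusted p = 0.00483). Of the 13 homeostatic genes 3 were lower and 2 higher, in a comparison that called 10.2% of 11828 genes (5.64% lower). The lower ones were the glutamate transporter genes Slc1a3 (edgeR, adjusted p = 5.22e-05) and Slc1a2 (log2 fold change -0.77) and Mlc1 (-0.51). The higher ones were the potassium channel gene Kcnj10 (0.65) and the gap junction gene Gjb6 (0.49).

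Gfap and Serpina3n had different neighbours among all genes. Over 16 class means of both regions, the genes with the pattern most like that of Gfap were Mt1 (Pearson's r = 0.930), Nat8f4 (0.926), Lgi4 (0.919), Fam107a (0.918) and Mlc1 (0.915), each highest in astrocytes. For Serpina3n they were Masp1 (0.886), Gpt2 (0.869), 4930445B16Rik (0.860), Tram1l1 (0.853) and Pou3f3 (0.847), of which the first 4 were highest in OPCs. These correlations describe 13010 genes over classes that share libraries and depth.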

How the data were processed

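The authors made nuclei from 2 dissected regions of each mouse, built 5′ single-cell libraries, and deposited raw UMI counts per gene and barcode. Per the labels, reads were demultiplexed with bcl2fastq 2.20.0.422 and counted with Cell Ranger 5.0.1 on mm10. P-values of the genotype comparisons within a region measure the spread between 6 mice per genotype. The main fits of region and of the interaction had no mouse block, so they treated the 2 libraries of a mouse as independent. The genes described and all gene lists were chosen with earlier results of these data known. Nuclei with 500 to 7000 genes and under 20% mitochondrial counts were kept and clustered in Seurat 5.3.0 (2000 variable genes, 20 components, resolution 0.01 and, within clusters, 0.1). Before the first clustering, the members and the genes of the wider lists were left out, apart from cell type markers and homeostatic astrocyte genes. That left 1972 variable genes in the deep brain and 1986 in the cortex. Clusters were named from marker lists (at least 3 markers over 2-fold, with 10 CPM added). Counts were summed per library and class (at least 10 nuclei) and tested with edgeR 4.0.16 (R 4.3.3; quasi-likelihood, TMM, low-count filter, Benjamini-Hochberg, 0.05). DESeq2 1.42.0 was an alternative. Shares of nuclei were compared by exact permutation over 924 splits, which gives a smallest p of 0.00216. The fitting script was tested on simulated data. Intervals and floors of 3 counts cover counting error only. No doublet removal was applied in the main fits.

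The 10 genes were the ones to be named; some comparisons give values only for those that passed the filter or carried the counts. Genes of the wider lists were named where called in astrocytes, as were genes among the 10 with the smallest p in each region and the 5 nearest to Gfap and to Serpina3n by Pearson's r of log2(CPM + 1), among genes with at least 20 CPM in 1 class. Replicate numbers paired mice over all cortical nuclei (every correlation of deviations between 0.212 and 0.762), and both regions of a mouse share its number. Some genes that these rules select are not reported here.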

Additional observations from a re-analysis of the deposited data

Results flagged for a closer look

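Among 76 groups of 6 libraries, 13 held a library whose gap to its nearest neighbour took up a share of the group's range above Dixon's critical value. The rate of about 1 in 20 by chance does not hold for sparse counts. A group with UMIs in only 1 library passes the value whatever its level, so the 13 cannot be set against that rate. In astrocytes, the high cortical Gfap of control 3 was 183 CPM (others 101 to 127), which is the control that overlaps the mutants. Vim stood at 49.6 CPM in cortical control 1 (others 9.48 to 22.8) and at 6.39 CPM in deep brain mutant 2 (others 11.6 to 13.6). Cd109 stood low in deep brain control 5, at 1.89 CPM (others 3.81 to 4.77). The Lcn2 level of 95.9 CPM and the Steap4 level of 9.0 CPM in cortical mutant 2 came from the single nucleus described above, and the others were at 0. Lcn2 at 0.367 CPM in deep brain control 4 and Steap4 at 0.423 CPM in deep brain control 3 were 1 UMI each.

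Over all nuclei, Serpina3n was 6.31 CPM in cortical control 3 (others 2.52 to 3.7). Lcn2 was 2.2 CPM in cortical mutant 2 (others up to 0.37) and 0.33 CPM in deep brain mutant 3 (24 UMIs, others up to 0.122). Cd109 was 2.31 CPM in deep brain control 4 (others 0.487 to 1.07), and Tnc was 6.54 CPM in cortical mutant 6 (others 2.1 to 3.08).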

How the results depend on the processing

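Counts below are genes called, with the value of the main fit in brackets, and the cause of a change was not tested. In deep brain astrocytes (646) leaving out 1 library gave 381 to 1053 genes and 0 to 1 members. Removing nuclei with UMIs of neurons, oligodendrocytes or microglia gave 115 genes and 0 of 3 members tested, Cd109 not among them. All clusters that met the astrocyte list gave 396 and 0, non-telencephalic-like nuclei 0 members, and telencephalic-like nuclei 377 genes. Signs turned for Gfap (0.15) and Stat3 (0.21) in telencephalic-like nuclei, Vim (0.10) in non-telencephalic-like nuclei and Stat3 (0.02) without nuclei holding foreign UMIs. In cortical astrocytes (153) no filter gave 365 genes and 2 members (the other being Lcn2, from 1 nucleus), leaving out 1 library 101 to 219, removal of nuclei with foreign UMIs 15 and 0 members (1 control against 2 mutant libraries), and removal of deeper libraries 93. Cortical Tnc (0.05) was -0.00 by DESeq2, -0.52 without the deeper libraries, -0.38 to 0.23 with 1 library left out, and 1.58 (edgeR, adjusted p = 0.0668) in the 3 libraries left after nuclei with foreign UMIs were removed.

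DESeq2 gave 488 genes in deep brain (227) and 222 in cortical oligodendrocytes (99), 16 in deep brain (9) and 2 in cortical OPCs (0), 7 in cortical microglia (4), 47 in endothelial cells (19), 960 over all deep brain nuclei (324), 270 genes and 1 member over all cortical nuclei (50), and 1 for the interaction (0). No filter gave 199 in cortical oligodendrocytes, 96 and 31 in OPCs, 72 and 58 in deep brain (10) and cortical microglia, 115 in endothelial cells, 77 over cortical nuclei and 1 for the interaction. Whole microglial clusters gave 25 and 14. Leaving out 1 library gave 52 to 176 genes and 0 to 1 members in cortical oligodendrocytes, 92 to 450 over deep brain nuclei (Gfap -0.02 to 0.17), and 11 to 110 genes and 0 to 1 members over cortical nuclei, where removal of the deeper libraries gave 10. Without thinning, the difference in share turned to -0.116 for Serpina3n and -0.0545 for Cd44 in the deep brain and 0.17 for Tnc in the cortex (percentage points).

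With the replicate block, 270 genes were called in cortical astrocytes, 561 in cortical oligodendrocytes, 32 and 1 in OPCs, 22 and 30 in microglia, 5 in endothelial cells, 507 and 418 over all nuclei and 1 for the interaction, and 1521 genes (1211) and 4 members between regions. Cortical Tnc was -0.10 with this block and -0.02 with mice paired by age. Between regions the pairing is by animal, with 4 of 6 correlations over 0.1. Between genotypes the correlations of same-numbered mice all exceeded 0.1 over all cortical nuclei and in no other class, although by the labels mice 1 to 4 of both genotypes were matched in age to the day, and mice 5 and 6 crosswise.

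The fits by astrocyte type, with all listed clusters, and the omissions of libraries from all nuclei and cortical oligodendrocytes were chosen after seeing the data. Doublet scores failed in the cortex, so no comparison with doublets removed is given there. Cortical astrocytes numbered 26 to 454 per library, and 3 members passed the filter there.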
